A study of Mus musculus with 3 samples.

Results

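The type I interferon response module was followed as 32 genes, chosen by their symbols in the deposited gene list, where 32 of 32 were found among 32285 genes. Their transcripts were counted by droplet single-cell RNA sequencing with a 10x 3' kit. The cells had been sorted from brain as CD45int CD11b+, the usual surface profile of microglia, which are the macrophages of the brain tissue itself. All mice were Apoe knockouts, so the deletion was shared by the sham controls. The groups were NMOSD induction with the peptide APOE130-149, NMOSD induction with a control peptide, and sham induction with PBS, each sampled on day 4. NMOSD stands for neuromyelitis optica spectrum disorder, in which antibodies attack the optic nerves and spinal cord, and the peptide's name refers to residues of apolipoprotein E. The study's stated interest was in what APOE does to the functional state of microglia. Since the brains of 4 mice were pooled into the single library of each group, there are no replicates, and no test between groups was made.

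Type I interferons bind a receptor of the subunits Ifnar1 and Ifnar2, whose kinases activate Stat2. With Irf9 it forms part of a factor that binds the interferon-stimulated response element (ISRE) in target promoters. The targets include sensors of foreign RNA and DNA, proteins that block viral translation or entry, and Irf7, which in turn drives more interferon production. In the brain, microglia with a raised interferon programme are known as a minority state in ageing, infection and demyelination.

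After filtering, 2025 cells with APOE130-149, 5011 with the control peptide and 4231 of sham remained, with medians of 9991, 7848 and 7124 unique molecular identifiers (UMIs) per cell. Cells were assigned to classes by summed marker genes, none of them in the module, and cells under 2000 UMIs were left without a class. That removed 7.65%, 7.0% and 24.5% of the cells with APOE130-149, with the control peptide and of sham. Microglia numbered 1572, 4011 and 2874 in the same libraries, and all 10 of their markers were detected in each. Border-associated macrophages numbered 17, 21 and 17, neutrophils 41, 68 and 31, and monocytes 28, 53 and 28. P2ry12 stood at 2680, 2508 and 2706 CPM in microglia, Mrc1 at 2298, 2204 and 2362 CPM in border-associated macrophages, and Ccr2 at 1541, 1502 and 1777 CPM in monocytes. The libraries shared at most 9 cell barcodes between any pair. Levels are CPM, a gene's UMIs as a rate of all UMIs of its class and library, and brackets give 95% exact intervals that cover counting error only, not variation between cells or mice. As fewer interferon-responding cells and less RNA per cell lower a class level alike, the per-cell data are given separately further on.

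Other cells' RNA differed between the libraries within the microglia gate. Ttr, the main transcript of choroid plexus, stood at 62.3 CPM with APOE130-149 and 83.5 CPM with the control peptide, against 0.803 CPM in sham. The 7 markers of ependymal and choroid plexus cells summed to 66.0, 86.5 and 3.87 CPM, and 1, 1 and 2 of them were at 0. The 12 neutrophil markers summed to 335, 275 and 213 CPM, and the 11 monocyte markers to 54.6, 49.8 and 29.5 CPM. Only in sham was 1 monocyte marker, Ace, at 0. The part of this RNA in the module's levels was not tested.

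Letters matching the ISRE core were found in the promoters of most members that could be read. Of the 32 genes, 26 had a promoter in the RefSeq table (GRCm38.p6), which spans 250 bases before to 50 after the start site. The genes without an entry were Oas2, Usp18, Ifi27l2a, Rtp4, Ifi204 and Zbp1. The ISRE core, GAAA followed after any 2 bases by another GAAA and searched on both strands, occurred in 17 of 26 members and in 3.99% of 27025 genes with a promoter. The interferon-gamma activated site TTCNNNGAA occurred in 4 of 26 members, against 9.55% of the genes, and it was also searched on both strands. Overlapping matches of a motif were counted separately, and matches of the 2 motifs may overlap. The sequences below are printed on the gene's strand, from the first listed start site, with each ISRE core match in capitals. They are shown because they span the range of cell-to-cell patterns described further on, from Rsad2 and Ifit1, found in few microglia, through Isg15, to Trim30a, spread over many.
Rsad2 (chr12:26456403-26456702, minus strand): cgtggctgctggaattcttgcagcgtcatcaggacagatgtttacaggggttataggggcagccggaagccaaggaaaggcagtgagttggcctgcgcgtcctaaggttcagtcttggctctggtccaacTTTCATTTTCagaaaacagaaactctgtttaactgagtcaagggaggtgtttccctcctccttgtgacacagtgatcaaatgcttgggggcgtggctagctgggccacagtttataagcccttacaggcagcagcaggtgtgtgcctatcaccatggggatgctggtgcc
Ifit1 (chr19:34640639-34640938, plus strand): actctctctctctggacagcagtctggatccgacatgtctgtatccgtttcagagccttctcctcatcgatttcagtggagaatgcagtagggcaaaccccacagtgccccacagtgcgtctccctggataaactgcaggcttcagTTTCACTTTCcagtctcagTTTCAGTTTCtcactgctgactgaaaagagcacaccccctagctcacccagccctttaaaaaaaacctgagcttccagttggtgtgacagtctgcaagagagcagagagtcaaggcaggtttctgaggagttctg
Isg15 (chr4:156200769-156201068, minus strand): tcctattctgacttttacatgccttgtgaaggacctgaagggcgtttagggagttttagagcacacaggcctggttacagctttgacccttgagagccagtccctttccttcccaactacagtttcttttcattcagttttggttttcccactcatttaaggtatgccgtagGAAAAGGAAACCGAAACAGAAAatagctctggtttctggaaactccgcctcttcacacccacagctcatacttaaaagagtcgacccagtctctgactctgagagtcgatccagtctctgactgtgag
Trim30a (chr7:104465144-104465443, minus strand): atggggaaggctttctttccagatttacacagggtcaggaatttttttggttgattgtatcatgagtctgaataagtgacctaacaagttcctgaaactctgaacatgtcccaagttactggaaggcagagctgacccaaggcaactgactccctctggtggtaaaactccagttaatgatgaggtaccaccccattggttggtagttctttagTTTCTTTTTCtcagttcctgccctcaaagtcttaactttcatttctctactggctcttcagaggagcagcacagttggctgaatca
In Ifit1 there are 2 matches, the nearer starting 85 bases before the start site, and in Isg15 3 overlapping matches, the nearest at 66 bases. Rsad2 and Trim30a have 1 match each, at 120 and 36 bases. A match describes letters only, and promoters without one, such as those of Irf7, Oasl2, Ifit2 and Slfn2, say nothing of the factor.

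Within microglia the module was led by a few genes. Ifi27l2a, which encodes a small interferon-inducible protein, stood at 405 CPM with APOE130-149, 439 CPM with the control peptide and 353 CPM in sham. Bst2, which encodes tetherin, a membrane protein that holds budding virus on the cell, followed at 303, 319 and 270 CPM. Ifitm3, which blocks viral entry from endosomes, had 189, 210 and 166 CPM. The 3 highest members of each library together held 47.6%, 47.9% and 43.4% of the module's UMIs. The summed level of all 32 was 1883 CPM [1866-1900] with APOE130-149, 2021 CPM [2008-2034] with the control peptide and 1827 CPM [1811-1843] in sham. The lowest members were Oasl1, an oligoadenylate synthetase-like gene, at 2.99, 2.94 and 2.23 CPM, and Cmpk2, a nucleotide kinase gene beside Rsad2, at 3.70, 3.17 and 3.72 CPM. No member was at 0 in microglia.

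Monocytes carried the module at far higher levels than microglia. Its sum was 10599 CPM with APOE130-149, 12224 CPM with the control peptide and 11115 CPM in sham monocytes. Of 32 members, 24 were at least 1.5-fold higher in monocytes than in microglia in each of the 3 libraries and 0 lower in each. Among 10703 genes at 2 CPM or more in every library's microglia, a level that all 32 reach, 11.6% were higher and 31.8% lower in each. Among genes with at least 50 CPM in either class, 21 of 24, 19 of 21 and 19 of 21 members were higher, where 30.5%, 31.7% and 32% of all genes were, and 0, 0 and 1 were lower, where 37.3%, 36.7% and 36.9% were. Ifitm3 was the highest, at 4625, 4926 and 4630 CPM, which was 24.5, 23.4 and 27.8 times its microglial level. Ifi27l2a reached 1942, 2629 and 2399 CPM. In the PYHIN family, whose proteins bind DNA, Ifi211 stood 25.3, 34.1 and 21.3 times above microglia and Ifi207 12.9, 12.6 and 18.6 times. The lower member was Herc6, the mouse ligase that attaches Isg15 to proteins, at 25.2 CPM in sham monocytes against 59.0 CPM in sham microglia. It had 60.4 CPM in monocytes with APOE130-149 and 48.1 CPM with the control peptide. The 10 UMIs behind the sham value show how few molecules such levels rest on in 28 cells.

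Border-associated macrophages, which line vessels and meninges, stood between. Their summed level was 4123, 5954 and 3820 CPM with APOE130-149, with the control peptide and in sham. Of 32 members, 12 were at least 1.5-fold above microglia in every library and 0 below in every library, against 4.14% and 9.01% of the 10703 genes. With no level minimum, Ifit2, Isg15 and Zbp1 were at least 1.5-fold below with APOE130-149, and 0 members with the control peptide. In sham, Ifit1, Ifit2, Ifit3, Stat2, Xaf1 and Phf11b were. No share over all genes was computed for these per library. The sham values of Ifit1 and Ifit2, 5.03 CPM each, rest on few UMIs. Oasl1 had no UMI with APOE130-149, which allows up to 18.9 CPM, above its microglial level, so it cannot be called lower. At the 50 CPM minimum, 12 of 15, 19 of 20 and 7 of 13 members were higher, where 21.1%, 18.6% and 17.9% of all genes were, and 0, 0 and 1 were lower, where 20.9%, 17.4% and 18.1% were. The lower member at that minimum was Stat2, at 10.1 CPM in sham against 51.9 CPM in sham microglia. Bst2 led here with 764, 1322 and 995 CPM. Ifi207 stood at 12.4, 12.9 and 11.5 times its microglial level. These classes of 17, 21 and 17 cells held 653, 1216 and 760 UMIs of the module. Microglial transcripts were also present in them, with P2ry12 at 934, 984 and 804 CPM and Tmem119 at 429, 441 and 367 CPM. In microglia P2ry12 stood at 2680, 2508 and 2706 CPM. The part of microglial RNA in these classes' levels was not tested.

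In neutrophils members lay on both sides of their microglial level, and the sum was 2834, 2055 and 2454 CPM. Ifitm3 was again highest, at 1134, 927 and 991 CPM, and Slfn2, a Schlafen gene that guards immune cell quiescence and was among the top 3 of each library, had 488, 367 and 515 CPM. Cmpk2 was 16.5, 17.7 and 31.2 times its microglial level, at 61.0, 56.0 and 116 CPM. By contrast Bst2 had 19.2, 39.0 and 15.1 CPM, far under its level in microglia. Over 32 members, 7, 7 and 8 were at least 1.5-fold higher than in microglia, against 10%, 10.3% and 10.7% of the 10703 genes. At least 1.5-fold lower were 20, 20 and 16, against 70.3%, 69.4% and 72.2%. The same 5 were higher in all 3 libraries, Ifitm3, Slfn2, Cmpk2, Rsad2 and Oas2, against 7.05% of the genes, and 14 were lower in all 3, against 59.0%. Among genes at 50 CPM, 4 of 10, 3 of 9 and 6 of 14 members were higher, against 19.3%, 19.2% and 20.7% of all genes, and 4, 5 and 5 were lower, against 60.5%, 60.4% and 60.8%. Ifi27l2a differed between the libraries, with 601 CPM with APOE130-149, 239 CPM with the control peptide and 129 CPM in sham neutrophils. Ifit3b had no UMI in the 3 libraries' neutrophils, and Ifi211 had none with APOE130-149 or in sham.

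**Figure D1:**
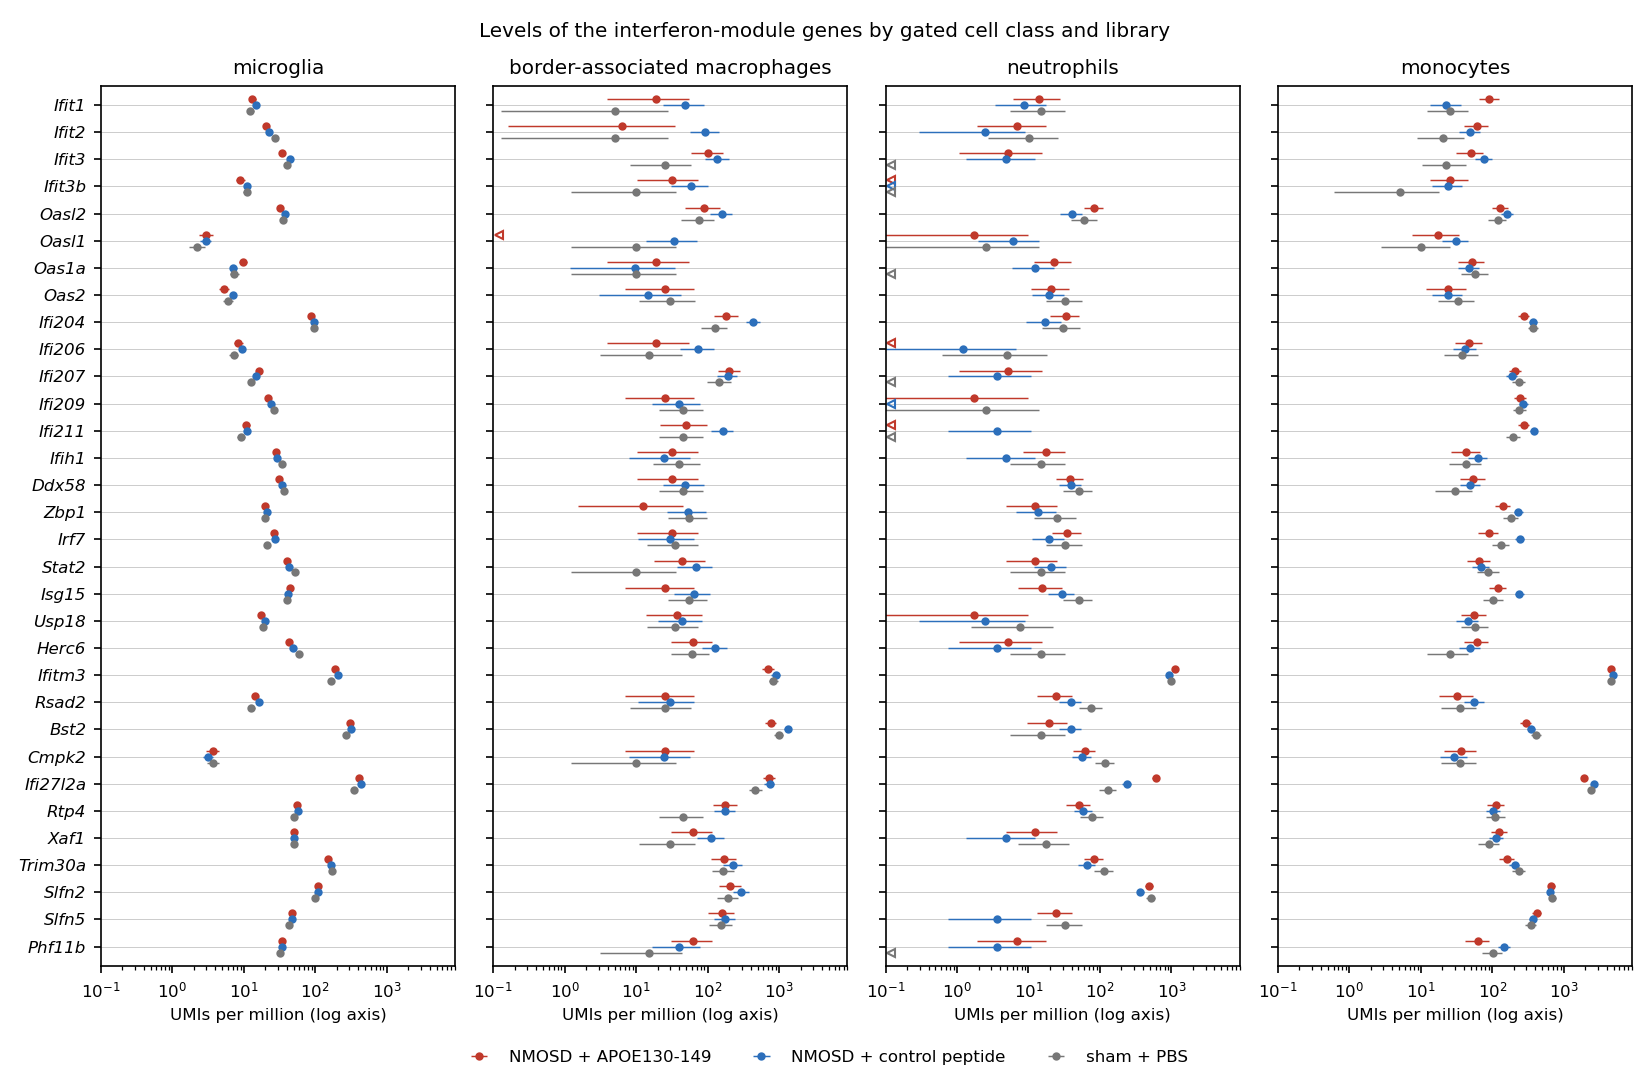
Levels of the 32 genes in each gated class, on a log axis of CPM, with 95% Poisson counting intervals as lines and a colour per library; open triangles at the left edge mark genes with no UMI. In monocytes Ifitm3 lies at 4625 CPM or above in all 3 libraries, whereas in microglia it lies between 166 and 210 CPM.

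The next comparison asks whether the level in microglia differed between the groups. The microglia of the libraries were not alike in other genes. When all kept cells were clustered without the module's genes, the largest cluster named as microglia held 79 cells with APOE130-149, 447 with the control peptide and 2248 of sham. The next held 874, 1252 and 57 cells, and the one after it 275, 1313 and 96. The part of this difference in the module's ratios was not tested. With all depths of cells summed, no member reached 1.5-fold, but most were lower with APOE130-149 than with the control peptide. Of the 27 members measured, 24 were lower and 3 higher with APOE130-149 than with the control peptide, where 46.0% of all genes were lower, and 12 had an interval below 1 and 0 above. The control peptide over sham had 20 higher and 7 lower, where 64.5% of all genes were lower, with 13 intervals above 1 and 5 below. APOE130-149 over sham had 14 higher and 13 lower, where 61.4% of all genes were lower, with 7 intervals above 1 and 11 below. Intervals were not computed over all genes, so these interval counts stand without a share. Of 32 members, 27 had at least 10 CPM in the higher library of each pair, and 0 of them were 1.5-fold apart in any pair. Over all genes, 0.430% were higher and 0.0955% lower with APOE130-149 than with the control peptide. Against sham, 1.87% were higher and 1.06% lower with APOE130-149, and 1.70% higher and 1.0% lower with the control peptide. The members' median log2 ratio was -0.12 for APOE130-149 over the control peptide, where all genes had 0.01. It was 0.01 for APOE130-149 over sham, where all genes had -0.05, and 0.09 for the control peptide over sham, where all genes had -0.08. At a smaller cut, a ratio of 5 to 4, 1 member (Ifit3) was lower with APOE130-149 than with the control peptide, against 0.955% of all genes, and 0 were higher, against 2.65%. At that cut APOE130-149 over sham had 2 members higher (Irf7 and Ifi207), against 4.15%, and 3 lower (Ifit2, Stat2 and Herc6), against 9.74%. The control peptide over sham had 3 higher (Irf7, Ifitm3 and Rsad2), against 3.51%, and 0 lower, against 10.9%. The 5 members under 10 CPM in every library were Oas1a at 9.71, 7.13 and 7.41 CPM, Ifi206 at 8.40, 9.52 and 7.27 CPM, Oas2 at 5.29, 7.06 and 6.06 CPM, and Cmpk2 and Oasl1.

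The IFIT genes, whose proteins bind foreign RNA and block its translation, were among the 24 members lower with APOE130-149 than with the control peptide. Ifit3 had 34.7 CPM with APOE130-149, 44.2 CPM with the control peptide and 40.5 CPM in sham. Its ratio of APOE130-149 to the control peptide, 0.785 [0.725-0.850], was the lowest of the 27. Ifit3b, a near copy which shares 14.9% of the 50-base windows at the transcript end of Ifit3, had 8.99, 11 and 11 CPM and a ratio of 0.819 [0.698-0.959]. Ifit2 had 20.7, 22.9 and 27.7 CPM, so that both NMOSD libraries lay under sham, at 0.748 [0.668-0.838] with APOE130-149 and 0.825 [0.751-0.906] with the control peptide. Ifit2 with APOE130-149 was at 0.907 [0.816-1.01] of the control peptide. Ifit1 had 13.2, 14.8 and 12.3 CPM, at 0.892 [0.781-1.02] of the control peptide. Oasl2, the only 2'-5' oligoadenylate synthetase family member at 10 CPM, had 31.9, 38.1 and 35.1 CPM and a ratio of 0.836 [0.768-0.909] between APOE130-149 and the control peptide.

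The factors and modifiers went in both directions against sham. Irf7, the transcription factor that amplifies interferon production, had 26.2 CPM with APOE130-149, 27.1 CPM with the control peptide and 20.8 CPM in sham. Its ratios to sham, 1.26 [1.12-1.41] with APOE130-149 and 1.30 [1.18-1.44] with the control peptide, were among the highest. Stat2, part of the factor that binds the ISRE, ran the other way, at 40.4, 43.4 and 51.9 CPM, with ratios of 0.779 [0.718-0.845] and 0.837 [0.782-0.896]. Herc6 had 43.0, 48.1 and 59.0 CPM and the lowest ratios to sham, 0.728 [0.673-0.787] and 0.815 [0.764-0.869]. Isg15, the ubiquitin-like protein that Herc6 attaches, had 43.7, 41.6 and 40.2 CPM, and Usp18, which removes it, 17.3, 19.8 and 18.8 CPM. Ifih1, which encodes the RNA sensor MDA5, had 28.1, 29.5 and 34.6 CPM, and Ddx58, which encodes the RNA sensor RIG-I, 31.5, 34.2 and 37.0 CPM. Both sensors were lowest with APOE130-149 and highest in sham. Zbp1, a sensor of Z-form nucleic acid, had 19.7, 21.2 and 19.9 CPM.

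The restriction factors Ifitm3, Bst2 and Rsad2 had higher levels in both NMOSD libraries than in sham. Ifitm3 had a ratio of 1.27 [1.22-1.31] for the control peptide over sham. Rsad2, which encodes viperin, an enzyme that makes a chain-terminating nucleotide, had 14.4, 16.5 and 12.8 CPM, at 1.29 [1.14-1.47] for the control peptide over sham. Ifi27l2a had 1.24 [1.21-1.27] in the same pair and 1.15 [1.11-1.18] for APOE130-149 over sham. Of the PYHIN genes, Ifi207 had 16.3, 14.8 and 12.7 CPM, at 1.28 [1.11-1.48] for APOE130-149 over sham, while Ifi209 had 21.5, 24.0 and 26.3 CPM. Ifi211 had 10.9, 11.2 and 9.24 CPM, and Ifi204 87.5, 95.9 and 95.2 CPM. Counts of some family members are uncertain, since reads may be split between copies. Of the 50-base windows in the last 500 transcript bases, Ifi211 shares 77.4% with Ifi205, Ifi209 63.4% with Ifi214, Oas1a 56.1% with Oas1g and Phf11b 42.6% with Phf11c. Irf7, Rtp4, Usp18, Oasl1, Slfn2 and Slfn5 overlap a gene on the opposite strand, Rtp4 also overlaps Gm45338 and Ifi211 overlaps Mndal on the same strand, and the use of strand in counting is not given in the sources used here. Trim30a had 151, 165 and 170 CPM, Slfn2 108, 108 and 99.8 CPM, and Xaf1 50.4, 51.2 and 49.98 CPM. The remaining members, Rtp4, Slfn5 and Phf11b, had ratios between 0.96 and 1.17 in every pair.

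**Figure D2:**
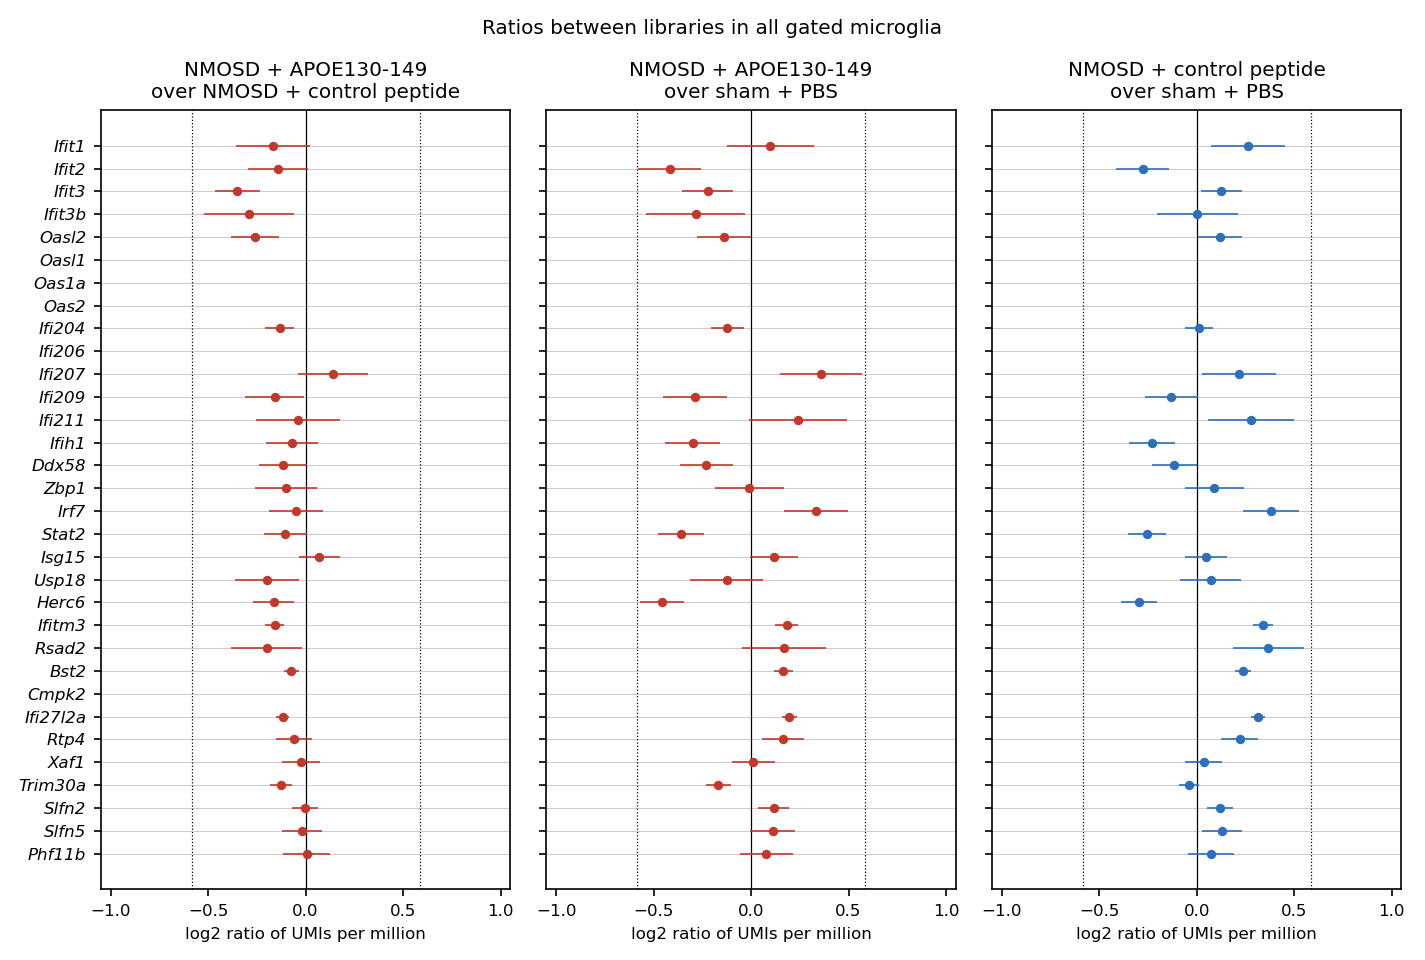
Log2 ratios of the 27 measured genes between libraries in all gated microglia, with 95% counting intervals as lines and the 1.5-fold limits dotted; genes without a point were under 10 CPM. Every point lies inside the limits, the lowest being Herc6 at -0.46 for APOE130-149 over sham.

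The picture changed when microglia of like depth were set side by side. Microglia with at least 20000 UMIs made up 21.3% of the class with APOE130-149 (335 cells), 12.4% with the control peptide (496) and 4.63% in sham (133). From 5000 UMIs upward the module's share of UMIs was higher in each deeper range. In microglia of 5000 to 10000 UMIs its sum was 1387 CPM [1355-1420] with APOE130-149, 1741 CPM [1720-1762] with the control peptide and 1591 CPM [1569-1614] in sham. In microglia of 10000 to 20000 UMIs the sums were 1759 CPM [1728-1790], 2072 CPM [2047-2097] and 1982 CPM [1954-2010]. At 20000 UMIs or more they were 2144, 2277 and 2232 CPM. The APOE130-149 library was thus lowest in each of these 3 ranges, although over all depths its sum exceeded that of sham. In the shallowest microglia, of 2000 to 5000 UMIs, it was highest, at 1969 CPM [1820-2126] in 98 cells, against 1463 and 1754 CPM. This split by depth was chosen after the values over all depths had been seen.

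In microglia of 5000 to 10000 UMIs all 25 measured members were lower with APOE130-149 than with the control peptide, 19 of them with an interval under 1. Here too, intervals were not computed over all genes. The members' median log2 ratio was -0.36, where all genes had 0.03. Of the 25, 7 were at least 1.5-fold lower and 0 higher, where 0.438% of all genes were lower and 1.16% higher. The 7 were Ifit2, Ifit3, Ifit3b, Irf7, Oasl2, Rsad2 and Zbp1. In microglia of 10000 to 20000 UMIs, 24 of 26 were lower, the median was -0.24 against 0.00 for all genes, and 5 were at least 1.5-fold lower and 0 higher, against 0.513% and 0.716% of all genes. These were Ifit1, Ifit3, Ifit3b, Usp18 and Rsad2. At 20000 UMIs or more, 17 of 29 were lower, the median was -0.05 against 0.01 for all genes, and 0 passed 1.5-fold in either direction, against 0.570% higher and 0.297% lower. Members past 1.5-fold lower were thus found in the ranges of 5000 to 10000 and 10000 to 20000 UMIs and not in the deepest.

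Against sham, APOE130-149 microglia showed a like pattern in the same ranges, but the comparisons share the APOE130-149 library. The median log2 ratio was -0.37 in microglia of 5000 to 10000 UMIs, where all genes had -0.06, and 6 of 25 members were at least 1.5-fold lower and 0 higher, against 2.64% and 1.86% of all genes. It was -0.33 in microglia of 10000 to 20000 UMIs, where all genes had -0.05, and 6 of 27 were lower and 0 higher, against 1.94% and 1.98%. At 20000 UMIs or more it was 0.04, where all genes had -0.01, and 2 of 28 were higher, Ifit1 and Rsad2, against 2.74%, and 0 lower, against 1.53%. The control peptide set against sham gave medians of 0.09, -0.04 and 0.06 in the 3 ranges, where all genes had -0.12, -0.06 and -0.02. There, 0 members passed 1.5-fold below 20000 UMIs, against 1.40% higher and 2.04% lower at 5000 to 10000 UMIs and 1.62% higher and 1.42% lower at 10000 to 20000 UMIs. In the deepest range 3 of 29 were higher, Ifit1, Rsad2 and Ifi206, against 2.33%, and 0 lower, against 1.59%.

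Ifit3 shows the pattern in 1 gene. In microglia of 5000 to 10000 UMIs it had 24.7 CPM with APOE130-149, 40.8 CPM with the control peptide and 34.4 CPM in sham, and in microglia of 10000 to 20000 UMIs 24.6, 45.9 and 47.7 CPM. At 20000 UMIs or more it had 42.2, 48.2 and 40.7 CPM. Its ratio of APOE130-149 to the control peptide was 0.605 [0.495-0.735], 0.536 [0.449-0.636] and 0.876 [0.785-0.976] over the rising ranges. Rsad2 had 8.16, 14.3 and 13.5 CPM in the first range, 8.44, 17.3 and 13.8 CPM in the second and 20.3, 19.1 and 7.92 CPM in the deepest. Of these ranges only the deepest put Rsad2 with APOE130-149 above both other libraries. The sham values of that range rest on 133 cells. Usp18 had 10.9 CPM with APOE130-149, 20.5 CPM with the control peptide and 20.1 CPM in sham at 10000 to 20000 UMIs, and 22.0, 20.8 and 20.9 CPM at 20000 UMIs or more.

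Other members had ratios nearer 1 in this pair. Trim30a had 151 CPM with APOE130-149, 165 CPM with the control peptide and 173 CPM in sham in microglia of 5000 to 10000 UMIs, a ratio of 0.919 [0.847-0.998] to the control peptide. Bst2 had 233, 263 and 226 CPM there, at 0.886 [0.829-0.946]. Slfn2 had 94.1, 104 and 92.4 CPM, at a ratio of 0.904. Isg15 had 30.4, 36.2 and 32.9 CPM, at 0.841 [0.699-1.01], and 40.8, 40.5 and 45.3 CPM in the next range, so that it was no lower than with the control peptide there.

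The cells set side by side also differed in other respects. Median UMIs within the 5000 to 10000 range were 8021 with APOE130-149, 6989 with the control peptide and 7621 in sham. P2ry12, a marker of homeostatic microglia, had 3302, 2838 and 2959 CPM there and 2757, 2482 and 2535 CPM in the next range. Mitochondrial UMIs averaged 1.84%, 2.36% and 1.99% in the first range. Ttr stood at 72.2, 90.5 and 0.953 CPM in it. The part of these in the module's ratios was not tested.

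**Figure D3:**
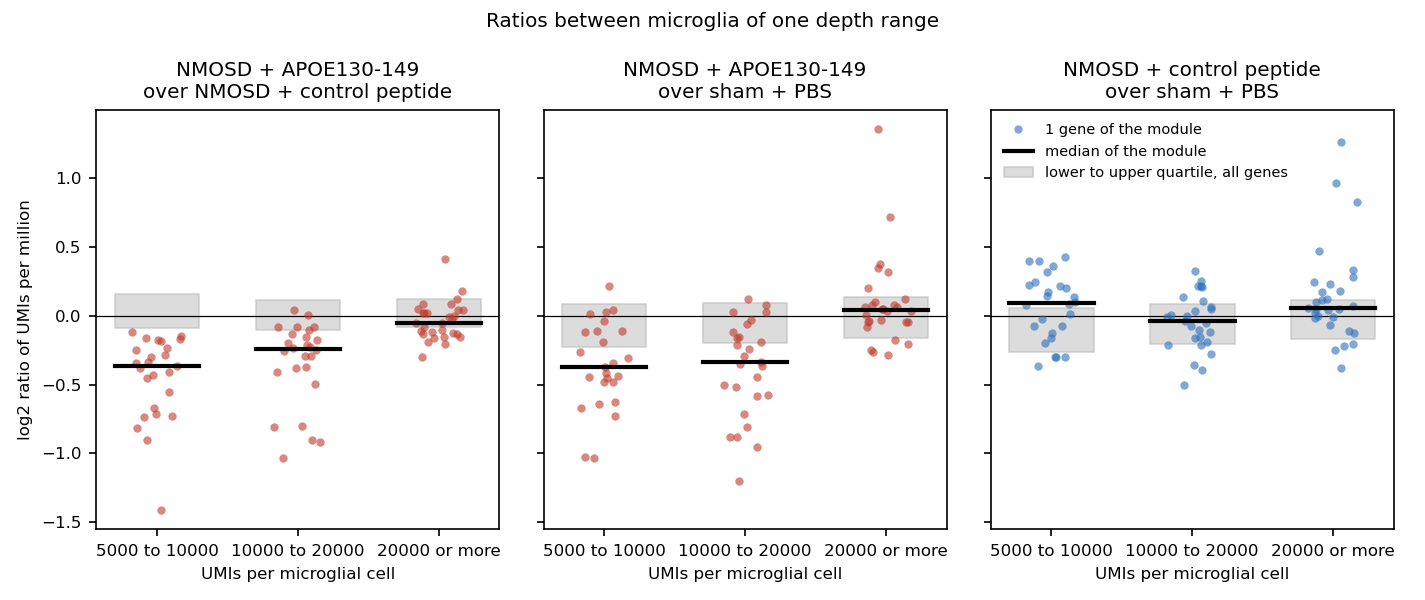
Log2 ratios between libraries in microglia of 1 depth range at a time; points are genes of the module at 10 CPM or more, black bars their median and grey boxes the lower to upper quartile of all genes. For APOE130-149 over the control peptide the median bar lies at -0.36 in cells of 5000 to 10000 UMIs, under the grey box, and at -0.05 in cells of 20000 or more.

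The members differed in how many cells carried them. For each gene the share of its UMIs in the 1% of microglia with most of them was taken, 16 cells with APOE130-149, 41 with the control peptide and 29 in sham. Among the 25 members at 10 CPM or more in each of the 3 libraries Rsad2 was the most concentrated, at 56.8% [51.5-62.0], 54.4% [50.8-57.9] and 59.4% [54.1-64.6]. Its 361 UMIs with APOE130-149 were found in 113 cells, and the 11 richest cells held at least as many as all others together. Of the same 25, Ifit1 followed at 42.8%, 47.7% and 50.9%, then Ifit2 at 35.5%, 39.6% and 45.2%, Ifit3 at 35.3%, 36.5% and 45.3%, and Ifi207 at 32.3%, 34.3% and 38.5%. These 4 had a UMI in at most 696 cells of a library. Members that fell under 10 CPM in a library could also have high shares, with Ifi211 at 50.7%, 49.0% and 55.7%, Ifit3b at 46.0%, 47.4% and 54.3%, Oasl1 at 54.7%, 51.1% and 73.8%, and Cmpk2 at 58.1%, 50% and 60.8%. Cmpk2 and Oasl1 had a UMI in at most 117 cells. In sham Oasl1 had 61 UMIs in 45 cells and Cmpk2 102 UMIs in 69 cells. So few UMIs by themselves put a large share in the 29 top cells. In libraries where members were under 10 CPM, they were not read beside genes of like level.

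At the other end Trim30a, a regulator of inflammatory signalling, had 9.41%, 9.58% and 8.55% of its UMIs in the top cells. Slfn2 had 10.1%, 10.2% and 10.1%, Bst2 11.1%, 11.7% and 9.82%, Xaf1, a pro-apoptotic factor, 10.1%, 11.4% and 12.3%, and Rtp4, a chaperone of receptor transport, 12%, 11.7% and 14.8%. Bst2 had a UMI in 1272 of 1572, 3149 of 4011 and 2095 of 2874 microglia. Level alone sets part of such a share, so members were read beside genes of like level. Among genes at 10 to 30 CPM the median share was 12.9%, 14.6% and 14.6%, whereas the module's members at that level had medians of 31.1%, 34.3% and 38.5%. Among genes at 30 to 100 CPM it was 9.39%, 10.5% and 8.82%, and the members' medians were 15.9%, 15.3% and 16.2%. Of 26, 27 and 26 members compared in this way, all were above the median of their level except Ifih1 with APOE130-149 and with the control peptide.

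**Figure D4:**
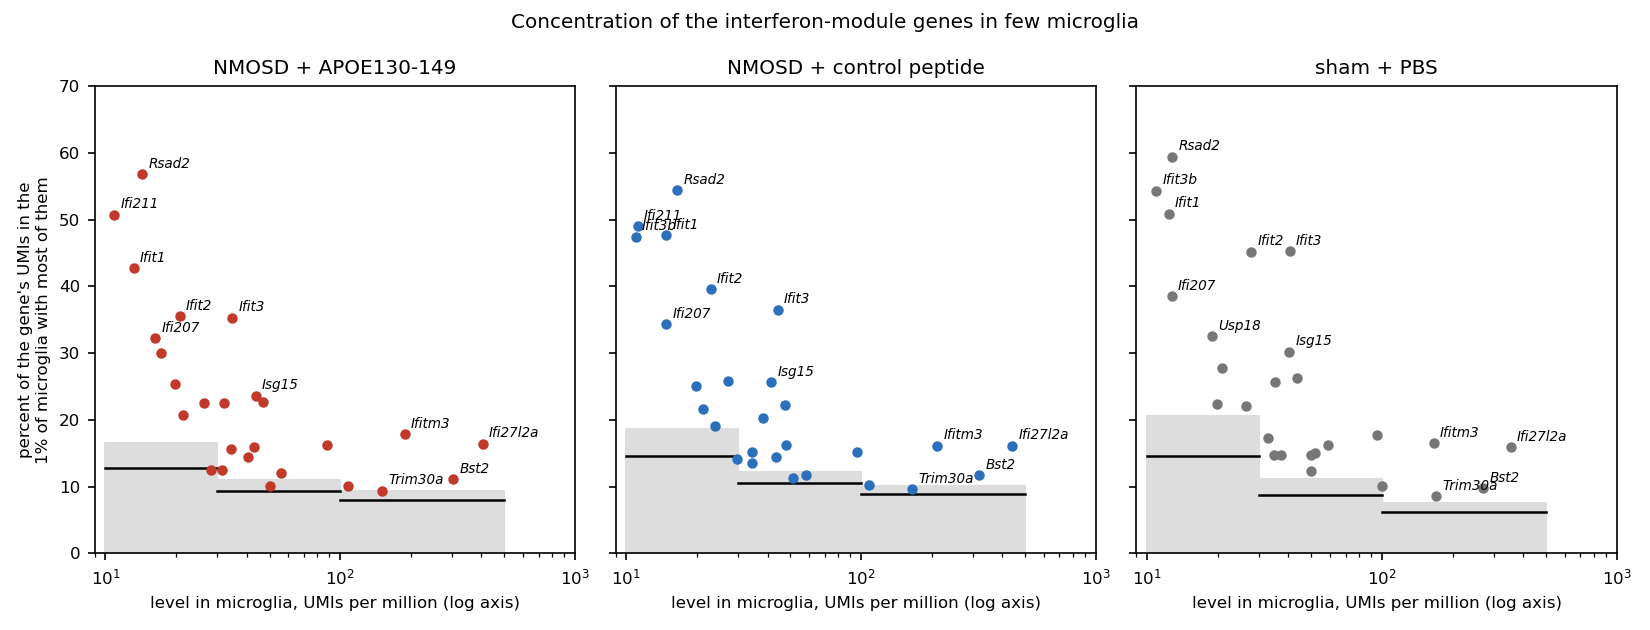
Share of each gene's UMIs held by the 1% of microglia with most of them (vertical axis, percent) against its level (log axis, CPM), 1 panel per library. Black lines are medians of all genes in a range of level and grey areas reach their 90th percentile; Rsad2 lies highest at 54.4% to 59.4% and Trim30a at 8.55% to 9.58%.

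Whether the module's genes sat in the same cells was asked by splitting it. Members in alphabetical order were assigned in turn to set A and set B, 16 genes each, and every microglial cell with at least 5000 UMIs was thinned to 5000 UMIs. Ifit3 and Ifit3b fell in different sets, so their shared sequence can add to the relation. Cells with 0 to 1 UMI of set A had on average 1.88, 2.01 and 1.62 UMIs of set B with APOE130-149, with the control peptide and in sham. Cells with 5 to 9 had 5.85, 6.5 and 5.97 UMIs, and cells with 20 or more had 28.7, 34.5 and 36.2 UMIs. The mean of set B rose at each step of set A in all 3 libraries. A cut on such a score marks a range of cells, and whether the high cells form a separate state was not tested.

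**Figure D5:**
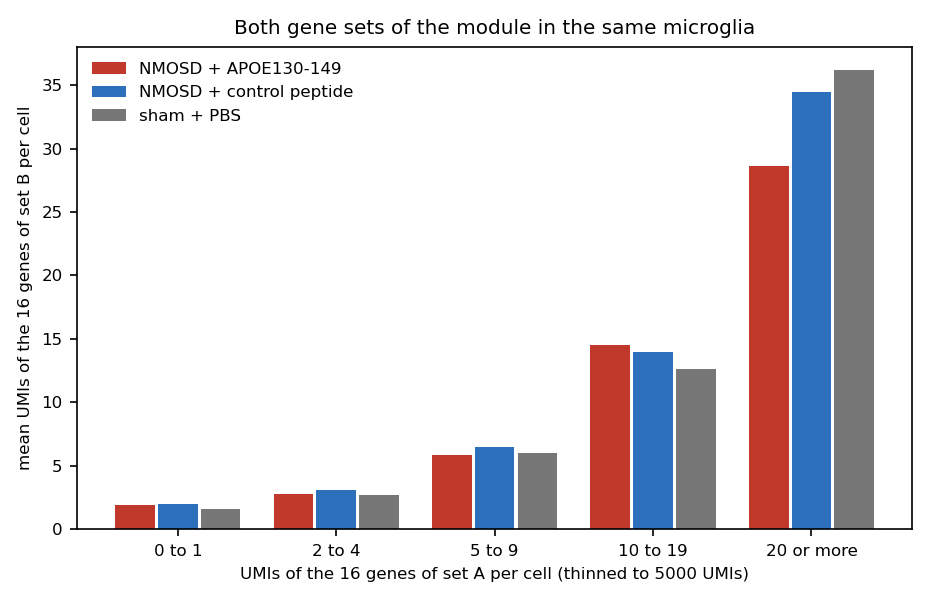
Mean UMIs of set B in microglia grouped by their UMIs of set A, each cell thinned to 5000 UMIs, with bars for the 3 libraries. The bars climb from at most 2.01 in cells with 0 to 1 UMI of set A to between 28.7 and 36.2 in cells with 20 or more.

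Cells with at least 10 UMIs of set A were called interferon-high. They made up 8.07% [6.73-9.58] of microglia with APOE130-149 (119 of 1474), 9.33% [8.39-10.3] with the control peptide (330 of 3537) and 9.19% [8.10-10.4] in sham (234 of 2546), and the 3 intervals overlap. Without thinning the shares were 7.12%, 7.75% and 7.45%. At the cut itself stood 21, 52 and 38 cells, and 30, 80 and 45 lay 1 UMI below it. Scored with set B instead, 11.4% [9.82-13.1], 13.8% [12.6-14.9] and 12% [10.8-13.3] reached 10 UMIs. In microglia of 10000 to 20000 UMIs the share by set B was 12.6% [9.82-15.8] with APOE130-149, 17.3% [14.9-19.9] with the control peptide and 15.2% [12.7-17.9] in sham. In those of 5000 to 10000 UMIs it was 8.29% [6.27-10.7], 11% [9.70-12.4] and 10.1% [8.65-11.6], again lowest with APOE130-149, with overlapping intervals.

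Each member was then compared between interferon-high cells and the other microglia, with the cells always chosen by the set that did not hold it. All 32 members were at least 1.5-fold higher in the high cells of each library. With cells chosen by set A, the 16 members of set B were among the 7.43%, 3.44% and 4.51% of genes outside set A that were higher, and 0 were among the 13.2%, 4.44% and 7.95% that were lower. For cells chosen by set B no such share was computed, so the members of set A stand without one. The median ratio of the 32 members was 7.95-fold with APOE130-149, 7.11-fold with the control peptide and 10.3-fold in sham. Isg15 had 264, 219 and 287 CPM in high cells, against 17.9, 17.3 and 14.2 CPM in the others. Rsad2 had 70.6, 125 and 117 CPM against 3.25, 4.12 and 3.55 CPM, which was 21.7-fold, 30.5-fold and 33.0-fold. Even Trim30a was 2.17-fold, 2.26-fold and 2.79-fold higher. High cells held 65.6%, 75.8% and 77.0% of the UMIs of Rsad2, but 21.9%, 26.5% and 27.6% of those of Trim30a. These shares come from different cells, as Rsad2 belongs to set B and Trim30a to set A. Cells chosen by set A, for Rsad2, numbered 119, 330 and 234, and cells chosen by set B, for Trim30a, 168, 487 and 306.

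Genes of the pathway outside the module were read in the high cells chosen by set A. Of 49 other interferon-stimulated genes with 10 CPM over high and other cells together, 44, 46 and 44 were at least 1.5-fold higher in interferon-high cells and 1 was lower in each library. The chemokine gene Cxcl10 had 195, 358 and 370 CPM there, against 20.4, 20.9 and 11.7 CPM in the other microglia, and was named after its values were seen. Of 8 receptor and kinase genes 0 were higher by that measure. Ifnar1 had ratios of 0.959 [0.694-1.30], 0.907 [0.750-1.09] and 1.09 [0.895-1.32]. P2ry12 was lower in the high cells, at 0.710, 0.807 and 0.774 times the others.

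The libraries were also compared within interferon-high cells, for 3 members described above. Herc6 had 95.8 CPM with APOE130-149, 150 CPM with the control peptide and 229 CPM in sham high cells, a ratio of 0.640 [0.471-0.857] for APOE130-149 over the control peptide and 0.418 [0.309-0.558] over sham. In the other cells Herc6 had 34.7, 37.2 and 43.8 CPM. Ifit3 had 203, 315 and 322 CPM in high cells, at 0.645 [0.525-0.788] of the control peptide and 0.631 [0.510-0.777] of sham, and 13, 15.2 and 11 CPM in the other cells. Rsad2 in high cells was at 0.563 [0.394-0.787] of the control peptide and 0.603 [0.416-0.857] of sham. These 3 were thus lowest with APOE130-149 among high cells. So were others, among them Ifit1, Ifit2, Ifit3b, Oasl2, Stat2 and Zbp1, but not all members were. Bst2 and Ifi27l2a were higher than with the control peptide there, at 1.18 [1.08-1.29] and 1.24 [1.13-1.36]. Each member was read in cells chosen by the set that did not hold it. Over all 32 members in high cells the median log2 ratio was -0.04 for APOE130-149 over the control peptide. There, 4 were at least 1.5-fold lower and 0 higher. The median was -0.25 over sham, with 10 lower and 1 higher. Intervals excluded 1 for 7 and 17 members, some above 1 and some below. No share over all genes was computed for these ratios. Whether these ratios differ between high and other cells was not tested.

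Upstream of the module, interferon genes were hardly seen. Of 20 listed interferon genes, 19 had no UMI in microglia with APOE130-149, 18 with the control peptide and 20 in sham, which allows up to 0.119 CPM for a gene with no UMI with APOE130-149. Ifnb1 had 1 UMI with APOE130-149 and 3 with the control peptide, and Ifnz 5 with the control peptide. Over all kept cells Ifng had 3, 8 and 0 UMIs, and Ifnk 1 UMI with APOE130-149. The receptor genes Ifnar1 and Ifnar2 had 84.9, 85.4 and 97.5 CPM and 309, 329 and 310 CPM in microglia. Irf9, which gives the factor its DNA binding, had 55.6, 55.3 and 61.6 CPM. No receptor, kinase, transcription factor or sensor of the list was 1.5-fold apart in any pair.

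Of 7 inhibitors at 10 CPM, 1 was past 1.5-fold, Socs3, which blocks cytokine receptor kinases. It had 158 CPM with APOE130-149, 97.9 CPM with the control peptide and 35.4 CPM in sham, and a ratio of 4.45 [4.15-4.78] for APOE130-149 over sham. Of 50 other interferon-stimulated genes, 1 passed, the chemokine gene Cxcl9, at 8.60, 16.8 and 13.9 CPM. Over these 50 the median log2 ratio was -0.08 for APOE130-149 over the control peptide, and in microglia of 5000 to 10000 UMIs it was -0.21 over 49 genes, 40 of which were lower. There, 4 of the 49 were at least 1.5-fold lower, Iigp1, Gbp2, Cxcl10 and Ccl5, and 0 higher, these being named after their values were seen. Transcription factors of the pathway had a median of 0.11 in the same cells and receptors -0.05.

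Across the 4 classes and 3 libraries, 12 points that share libraries, the genes whose level ran most like the module's sum were Anxa5 (Pearson r = 0.976), Cox8a (0.974), Rbm17 (0.945), Gtf2h5 (0.944) and Rpp21 (0.944). Anxa5, a phospholipid-binding annexin, had 34.5 to 46.2 CPM in microglia and 408 to 468 CPM in monocytes. Levels are log2(CPM + 1) in this measure, and genes at 10 CPM or more in microglia were ranked.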

How the data were processed

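The deposited files hold raw UMI counts per gene and cell barcode, 1 matrix for each library. Per the submitters' processing notes, the authors used Cell Ranger 5.0.1 and Seurat 4.3.0 with mm10, whereas the file headers name cellranger 7.0.1, and the 2 versions were not reconciled. Per the labels' protocols, libraries were made with a 3' v.2 kit from brain cells pooled over 4 mice. The libraries held 32060750 UMIs with APOE130-149, 61469677 with the control peptide and 32712199 of sham.

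Cells were kept from 500 detected genes upward where mitochondrial transcripts took no more than 10% of the UMIs. Classes were gated on summed marker UMIs per 10000 UMIs in cells of at least 2000 UMIs, and the limits were set after the distributions had been seen. No doublet caller was run and doublets were not removed. UMIs were summed per library and class. Intervals are exact Poisson for levels, exact conditional (Clopper-Pearson) for ratios and exact binomial for shares. A gene counted as higher or lower at 1.5-fold or more, with at least 10 CPM in the higher library, or 50 CPM between classes. A count of 0 was taken to allow up to 3 counts. With 1 library per group no p-value was computed. The steps were tested on simulated data.

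The module's members and the gene lists were chosen with earlier results of these data known. Named were all members, with values for extreme ratios, the most and least concentrated genes, class leaders and family copies, and of other genes receptor subunits, Irf9, interferon genes with a UMI, pathway genes past 1.5-fold and the 5 most like the module. Of 149 listed pathway genes 142 were found. A gene that the rule also covers is not reported here. Promoter sequences are RefSeq's. Software was Python 3.11.15, numpy 2.4.6, scipy 1.17.1, pandas 2.3.3, matplotlib 3.10.9, scikit-learn 1.9.0, Scanpy 1.11.5, igraph 0.11.9, leidenalg 0.10.2 and, for TMM scaling alone, R 4.3.3 with edgeR 4.0.16.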

Additional observations from a re-analysis of the deposited data

How the results depend on the processing

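No paired analysis was possible because each group is 1 library, and for the same reason no library could be left out. Of values for the whole module under an alternative, 117 stayed within their counting interval or within 1.5 times the count and 36 moved. Of 648 ratios of single members, 587 kept their sign. Without cells above 2 times the library's median UMIs, the members' median log2 ratio was -0.36 for APOE130-149 over sham. It was -0.082 for the control peptide over sham. Both medians were below 0 where they had been above it, and all genes had -0.066 and -0.093 there. For APOE130-149 over sham 6 members were at least 1.5-fold lower, against 1.58% of all genes. For APOE130-149 over the control peptide 2 were, against 0.179%. Sham neutrophils then had 14 members instead of 8 at least 1.5-fold above microglia, but no share over all genes was computed for that setting. The median concentration with the control peptide was then 25.7%. With each cell thinned to 5000 UMIs, 3 members were lower with APOE130-149 than with the control peptide, against 0.226% of all genes. In the same cells 3 were lower than in sham, against 2.18%, with a median of -0.20 where all genes had -0.06. Median concentration was then 26.6% with APOE130-149 and 25.3% with the control peptide. At a ratio of 5 to 4, the counts were 1 lower for APOE130-149 over the control peptide, 2 higher and 3 lower for APOE130-149 over sham, and 3 higher for the control peptide over sham. In the depth ranges added after seeing the data, cells of 5000 to 10000 UMIs gave medians of -0.36 (7 lower) over the control peptide and -0.37 (6 lower) over sham, and cells of 10000 to 20000 UMIs gave -0.24 (5 lower) and -0.33 (6 lower). Clusters made without the members gave 1 member higher for the control peptide over sham, Ifi211 at 16.4 against 10.8 CPM, where 1.73% of all genes were higher. They gave 5 members higher in sham neutrophils, again without a share over all genes, and held no cluster of border-associated macrophages. The interferon-high share by set B was 11.4%, 13.8% and 12% with APOE130-149, with the control peptide and in sham. By set A it was 6.65%, 7.86% and 7.70% with a cut 1 UMI higher. Unthinned, the share by set A was 7.75% with the control peptide and 7.45% in sham. In the top 0.25% of cells the median concentration was 7.90%, 8.33% and 9.53%. The cause of these shifts was not tested. TMM scaling, median-of-ratios scaling, stricter cell filters and all kept cells moved no count of members past 1.5-fold in microglia. The classes other than microglia hold 17 to 68 cells each, so their values rest on few cells.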
